A study of Rattus norvegicus with 9 samples.

Results

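The genes of airway and vascular smooth muscle described here are 10 genes of the contractile machinery and its regulation: Acta2, Tagln, Myh11, Cnn1, Des, Myocd, Actg2, Lmod1, Smtn and Mylk. They were chosen by symbol, matched to the NCBI Gene IDs of the deposited table, and make up 10 of its 17465 genes. All 10 passed the filter on low counts. They were measured by sequencing of ribosome-depleted total RNA in 9 fetal lungs of Sprague-Dawley rats. The groups were 3 untreated control lungs, 3 untreated hypoplastic lungs (small, underdeveloped lungs; the series title names oligohydramnios, too little amniotic fluid) and 3 treated lungs, hypoplastic ones that received AFSC-EV (extracellular vesicles from stem cells of the amniotic fluid). The sources used here do not give fetal age, litter, dose or route.

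Smooth muscle wraps the growing airways and the arteries of the fetal lung, and the airway layer contracts in waves before birth. Its contractile genes are switched on by serum response factor (Srf), which binds a DNA element called the CArG box, together with myocardin (Myocd) and related cofactors. Actin (Acta2, Actg2) and myosin (Myh11) filaments produce the force, Mylk starts contraction, Cnn1, Tagln and Smtn bind actin, Lmod1 starts new actin filaments, and Des forms the intermediate filaments that link them. In a bulk lung sample, fewer smooth muscle cells and less RNA per cell cannot be told apart.

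The promoters of 3 of the 10 genes are shown. They are that of Acta2, the only member promoter found with CArG-like elements, and those of Des and Cnn1, the members with the largest differences between groups. Each runs from 250 bases before to 50 bases after the annotated start and is given 5′ to 3′, from RefSeq, build GRCr8, which is not the build named by the submitters. Capitals mark CArG-like elements.
Acta2, chr1:241172454-241172753, minus strand: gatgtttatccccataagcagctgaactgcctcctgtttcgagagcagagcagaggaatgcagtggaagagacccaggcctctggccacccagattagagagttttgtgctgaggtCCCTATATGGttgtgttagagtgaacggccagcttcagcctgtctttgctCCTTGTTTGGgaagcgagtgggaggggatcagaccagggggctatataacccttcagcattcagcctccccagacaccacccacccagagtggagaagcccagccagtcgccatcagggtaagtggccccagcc
Des, chr9:84299376-84299675, plus strand: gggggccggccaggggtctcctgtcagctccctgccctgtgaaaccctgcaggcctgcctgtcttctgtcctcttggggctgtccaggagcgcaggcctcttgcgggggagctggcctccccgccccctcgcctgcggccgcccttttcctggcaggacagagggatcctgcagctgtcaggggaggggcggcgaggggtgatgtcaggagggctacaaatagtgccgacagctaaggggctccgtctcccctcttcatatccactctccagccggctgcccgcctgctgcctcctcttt
Cnn1, chr8:28908187-28908486, plus strand: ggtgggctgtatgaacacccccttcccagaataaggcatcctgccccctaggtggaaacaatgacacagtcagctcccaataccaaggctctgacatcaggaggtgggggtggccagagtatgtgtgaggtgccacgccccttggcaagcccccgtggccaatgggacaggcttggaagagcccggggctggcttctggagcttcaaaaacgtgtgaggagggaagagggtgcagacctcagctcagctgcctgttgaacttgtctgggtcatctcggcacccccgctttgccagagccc

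A RefSeq promoter was found for 6 of the 10 members (Acta2, Cnn1, Des, Actg2, Smtn and Mylk). The CArG box was searched as CC, 6 bases of A or T and GG, a form that reads alike on both strands, and none of the 6 windows held it, against 1.64% of all 33469 promoters of this length. A looser form, with at least 5 of the 6 core bases A or T, was chosen after that search found none. It occurred in the Acta2 window 2 times, as CCCTATATGG starting 134 bases and as CCTTGTTTGG starting 84 bases before the start, and in none of the other 5 windows. Of all promoters in the table, 9.42% held the looser form at least once and 0.846% at least 2 times. These matches describe the letters in the windows only.

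Library totals ran from 56922779 to 88243188 estimated counts. Lmod1, the member with the fewest counts, had 113 to 328 estimated counts per library and each of the other members at least 339, so counting error was small beside the spread between lungs. Levels are given as CPM, counts scaled to a common normalised library size, and are compared between libraries of 1 gene but not between genes, since transcript lengths were not used. Read from Xist, Ddx3y and Eif2s3y, there were 2 males and 1 female among the controls, and 1 male and 2 females in each of the other groups. Nothing in the labels says whether the lungs of a group came from separate litters. The p-values set group differences against the spread between these libraries and treat the libraries as independent, which the labels do not settle.

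The labelled tissue was checked against 6 lung epithelial genes, whose summed level was 1960 to 4610 CPM in the 9 libraries, with none at 0. The smooth muscle members summed to 843, 442 and 987 CPM in control libraries 1 to 3, to 1280, 963 and 854 CPM in the hypoplastic libraries and to 587, 1140 and 1030 CPM in the treated libraries. The libraries that stood apart were control 2, hypoplastic 1 and, for the members, treated 1. Control library 2 had the lowest smooth muscle sum, the highest lung epithelial sum (4610 CPM, against 1960 to 3340 CPM in the others) and the highest share of ribosomal and 7SL RNA (19.9%, against 14.1 to 18.3%). Hypoplastic library 1 had the highest smooth muscle sum, and with it the highest sums of 8 cartilage genes (1170 CPM, against 140 to 564 CPM) and of 15 heart muscle genes (310 CPM, against 26.9 to 158 CPM). Treated library 1 had the second lowest smooth muscle sum, with 523 CPM of cartilage and 31.2 CPM of heart muscle genes, inside the range of the other libraries.

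**Figure D1:**
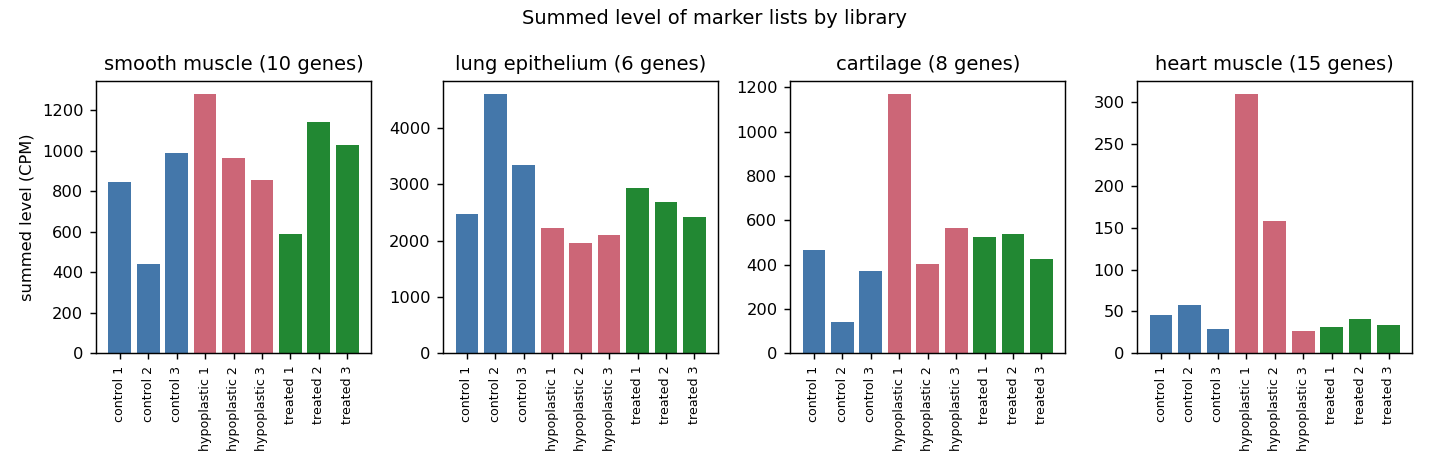
Summed level (CPM, vertical axis) of the 10 smooth muscle, 6 lung epithelial, 8 cartilage and 15 heart muscle genes in each library, 1 bar per library, coloured by group. The smooth muscle bar is shortest in control library 2 (442 CPM), where the epithelial bar is tallest (4610 CPM), and tallest in hypoplastic library 1 (1280 CPM), where the cartilage (1170 CPM) and heart (310 CPM) bars are tallest too.

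Myocd, the cofactor that drives the programme, varied less between libraries than most other members. It was at 14.6, 8.95 and 11.2 CPM in control libraries 1 to 3, at 13.3, 15.3 and 12.8 CPM in the hypoplastic libraries and at 10.9, 14.3 and 17.4 CPM in the treated libraries. The 3 groups overlapped, and the group means were 11.6 CPM ± 2.82, 13.8 CPM ± 1.32 and 14.2 CPM ± 3.23 (SD, n = 3 each).

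Acta2, the smooth muscle alpha-actin, was at 146, 68.5 and 191 CPM in control libraries 1 to 3. It was at 306, 181 and 163 CPM in the hypoplastic libraries and at 94.0, 278 and 184 CPM in the treated libraries. Control library 2 and treated library 1 were low and hypoplastic library 1 and treated library 2 high, so each group held values that another group also reached. Actg2, the gamma-actin best known from visceral smooth muscle, was at 22.4, 11.4 and 22.7 CPM in control, 56.7, 19.4 and 19.8 CPM in hypoplastic and 11.3, 27.0 and 21.9 CPM in treated libraries. Its hypoplastic mean of 32.0 CPM ± 21.5 (SD, n = 3) rested on library 1, since the other 2 hypoplastic libraries lay inside the control range. Reads of the near-identical actin genes, among them Actc1 of heart muscle, can be split between them by the authors' counting. Actc1 was at 111 CPM in hypoplastic library 1, 47.0 CPM in hypoplastic library 2 and 1.05 to 8.44 CPM in the other libraries.

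Myh11, the smooth muscle myosin heavy chain, was at 78.2, 44.2 and 67.6 CPM in control libraries 1 to 3, at 133, 52.5 and 54.5 CPM in the hypoplastic libraries and at 36.1, 82.0 and 67.0 CPM in the treated libraries. As for Actg2, hypoplastic library 1 was the only hypoplastic library above the control range. Mylk, the kinase that phosphorylates the myosin light chain, was at 269, 177 and 334 CPM in control, 296, 266 and 264 CPM in hypoplastic and 222, 279 and 302 CPM in treated libraries. The control libraries of Mylk spanned the values of both other groups.

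Cnn1 (calponin, which binds actin and slows the myosin ATPase) was at 13.3, 6.05 and 15.8 CPM in control libraries 1 to 3, at 37.8, 12.0 and 16.3 CPM in the hypoplastic libraries and at 6.45, 17.1 and 11.1 CPM in the treated libraries. Hypoplastic library 1 was the highest of the 9. Tagln (transgelin, an actin-bundling protein) was at 65.1, 26.2 and 84.2 CPM in control, 110, 77.8 and 69.4 CPM in hypoplastic and 41.5, 114 and 81.0 CPM in treated libraries. Its highest value was in treated library 2, its lowest in control library 2, and the groups overlapped.

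Des (desmin) was at 115, 33.9 and 136 CPM in control libraries 1 to 3, at 223, 209 and 144 CPM in the hypoplastic libraries and at 70.4, 197 and 194 CPM in the treated libraries. It was the only member whose hypoplastic libraries all lay above all control libraries, although hypoplastic library 3 and control library 3 were close. Smtn (smoothelin) was at 117, 63.4 and 121 CPM in control, 99.6, 128 and 107 CPM in hypoplastic and 91.5, 123 and 147 CPM in treated libraries. Lmod1 (leiomodin) was at 2.54, 2.02 and 3.42 CPM in control, 4.77, 3.15 and 2.12 CPM in hypoplastic and 3.0, 3.92 and 3.67 CPM in treated libraries. Both overlapped between all groups.

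**Figure D2:**
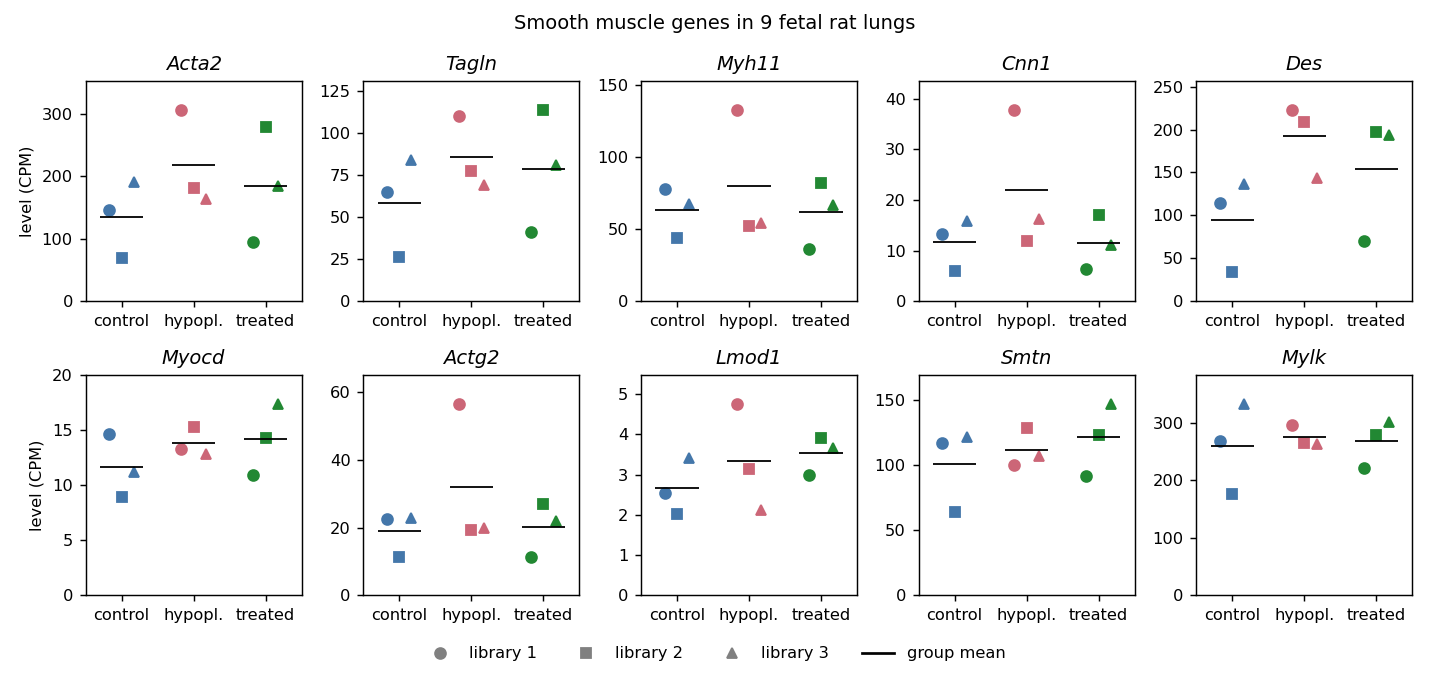
Level (CPM, vertical axis, a separate scale per gene) of the 10 smooth muscle genes in the control, hypoplastic and treated libraries. Symbols tell the library number within a group, which is not said to pair libraries, and lines are group means. For Des the lowest hypoplastic library (144 CPM) lies just above the highest control library (136 CPM), and for Cnn1, Actg2 and Myh11 hypoplastic library 1 lies far above the other 8.

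The same libraries were low or high for nearly all members. Control library 2 was the lowest of the 9 for 8 of the 10 members, and treated library 1 was the lowest for the other two, Myh11 and Actg2. These were the 2 lowest libraries for 9 of the 10, the exception being Lmod1. Hypoplastic library 1 was the highest for 6 members (Acta2, Myh11, Cnn1, Des, Actg2 and Lmod1), treated library 3 for Myocd and Smtn, treated library 2 for Tagln and control library 3 for Mylk. From the lowest to the highest library Des spanned 6.57-fold, Cnn1 6.25-fold, Actg2 5.03-fold, Acta2 4.48-fold, Tagln 4.36-fold and Myh11 3.68-fold. Lmod1, Smtn, Myocd and Mylk spanned 2.37-, 2.33-, 1.94- and 1.89-fold.

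The spread inside the groups was set beside that of all genes. The SD of log2 CPM within groups was 0.616 to 0.823 for Myh11, Acta2, Tagln, Actg2, Cnn1 and Des, more than that of 87.3 to 92.9% of the 12966 genes tested, whose median SD was 0.225. For Lmod1 and Smtn it was 0.416 and 0.379, and for Mylk and Myocd 0.305 and 0.291, more than 66.0 and 63.7% of genes. The actins, Myh11, Cnn1, Tagln and Des thus differed most between lungs of 1 group, and Myocd and Mylk least.

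**Figure D3:**
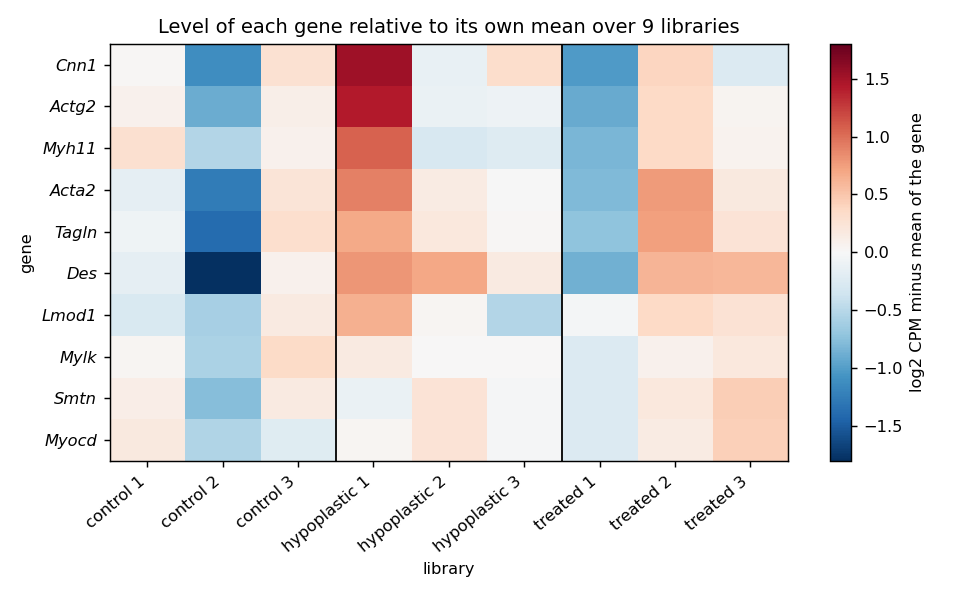
Level of each gene as log2 CPM minus its mean over the 9 libraries (colour), with genes as rows and libraries as columns, the groups separated by lines. Control library 2 is blue for all 10 genes, hypoplastic library 1 is darkest red for Cnn1, Actg2 and Myh11, and the 4 lowest rows (Lmod1, Mylk, Smtn and Myocd) are paler.

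Pearson's r of log2 CPM over the 9 libraries was positive in all 45 pairs of members, from 0.359 (Myh11 and Smtn) to 0.988 (Acta2 and Tagln), with a median of 0.764. After each group's mean was taken out, the median was 0.779 and the range 0.319 to 0.991, so the likeness between members was as high within groups. These values are descriptions only. The members read in 1 library share its depth and composition, which differed between libraries. Beside the pair of Acta2 and Tagln, r was 0.967 for Myh11 and Actg2, 0.968 for Cnn1 and Actg2 and 0.904 for Myh11 and Cnn1. Des was closest to Tagln (0.956), and Myocd to Smtn (0.878) and Des (0.831), while Myocd had 0.411 with Cnn1 and 0.440 with Myh11.

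Of 9563 other named genes averaging 5 CPM or more, those most like the members' mean standardised level over the 9 libraries were Rnf130 (r = 0.973), Aldoc (0.963), Pde9a (0.962), Ubxn1 (0.960) and Aldoa (0.960). Aldoa, a glycolytic aldolase, was at 1490, 750 and 1630 CPM in control, 2190, 2030 and 1500 CPM in hypoplastic and 1050, 2130 and 1630 CPM in treated libraries. Aldoa was chosen for its likeness to the members, so its low values in control library 2 and treated library 1 follow from that choice.

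Within a library, the ratio of Tagln to Acta2 CPM, the pair with the highest r, was between 0.360 and 0.446 in the 9 libraries.

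Hypoplastic lungs were set against controls to see what hypoplasia changed in the smooth muscle programme. All 10 members had a higher fitted level in the hypoplastic lungs, where 51.9% of all genes did, and their median log2 fold change was 0.445 against 0.0129 over all genes, but edgeR called 0 of the 10 at an adjusted p under 0.05. Over all genes tested 0.00771% were called by edgeR. At an unadjusted p under 0.05 edgeR had 0 of 10 members, where 12.4% of all genes passed. DESeq2 called 0 members, where it called 1.56% of genes, and had 1 member, Cnn1, at an unadjusted p under 0.05 (0.0491). Of all 12926 genes, 1764 had an unadjusted DESeq2 p under 0.05. The libraries of 1 member, Des, did not overlap between the groups, against 16.7% of all genes in either direction and 7.65% in the direction of Des.

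Des differed most, by 1.02 on the log2 scale (95% interval -0.10 to 2.13, SE 0.499, edgeR adjusted p 0.438), followed by Cnn1 at 0.91 (interval -0.21 to 2.04, SE 0.502, edgeR adjusted p 0.482). Actg2 followed at 0.76 (interval -0.30 to 1.82), Acta2 at 0.68 (interval -0.31 to 1.67) and Tagln at 0.55 (interval -0.43 to 1.53). Myh11, Lmod1 and Myocd were at 0.34, 0.33 and 0.26, and Smtn and Mylk at 0.15 and 0.08. The interval was narrow for Mylk, from -0.38 to 0.55. All 10 intervals included 0.

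These differences leaned on hypoplastic library 1 and control library 2. Without hypoplastic library 1 the log2 fold change of Actg2 was 0.05, that of Cnn1 0.27, that of Acta2 0.35, and those of Myh11 and Lmod1 were -0.24 and -0.02. Without control library 2 that of Des was 0.61, that of Tagln 0.20, and those of Smtn and Mylk were -0.10 and -0.13. The median over the 10 members was 0.186 without control library 2 and 0.733 without control library 3. Hypoplastic library 1 is the library with the highest cartilage and heart muscle sums, and control library 2 that with the highest epithelial sum. All 6 epithelial genes were lower in the hypoplastic lungs (median log2 fold change -0.715, 2 of them called by DESeq2 and 0 by edgeR). Over all genes 51.9% were higher there, and DESeq2 called 1.56%. The part of cartilage, heart muscle and epithelium in the smooth muscle values was not tested.

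**Figure D4:**
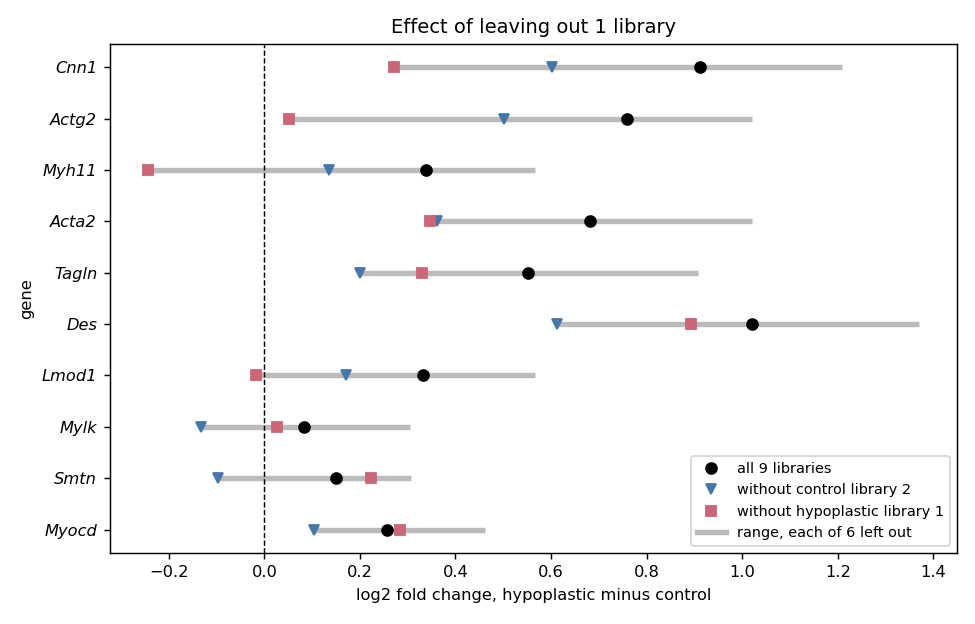
Log2 fold change between hypoplastic and control lungs (horizontal axis) of each gene with all 9 libraries (black), without control library 2 (triangle) or hypoplastic library 1 (square), and the range when each of the 6 libraries compared was left out (grey bar). Myh11 moves from 0.34 to -0.24 without hypoplastic library 1, while Des stays at 0.61 or above.

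Treated lungs were set against untreated hypoplastic lungs to see what the vesicles changed. In the treated lungs 7 of the 10 members had a lower fitted level and 3 a higher one (Myocd, Lmod1 and Smtn), where 48.1% of all genes were higher. This count turned with single libraries, to 8 higher and 2 lower without hypoplastic library 1 and to 7 higher and 3 lower without treated library 1. The median log2 fold change was -0.174 against -0.01 over all genes. edgeR called 0 of the 10, where it called 0.0% of all genes, and had 0 at an unadjusted p under 0.05, where 5.56% of genes passed. DESeq2 called 0 members, against 0.132% of genes, and had Cnn1 alone at an unadjusted p under 0.05 (0.0446). Of all 12926 genes, 750 had an unadjusted DESeq2 p under 0.05. No member had groups that did not overlap, against 9.79% of genes.

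Cnn1 had the largest difference, at -0.935 on the log2 scale (95% interval -2.06 to 0.19, SE 0.501, edgeR adjusted p 0.901), which was -0.294 without hypoplastic library 1. Actg2 was at -0.67 (interval -1.73 to 0.38) and at 0.04 without that library, and Myh11 at -0.38 and 0.21. Des was at -0.32, Acta2 at -0.23 and Tagln at -0.12, and these were 0.03, 0.09 and 0.19 without treated library 1. The other 4 lay between -0.04 and 0.11. The median over the members was -0.511 when treated library 2 was left out and was 0.0854 when treated library 1 was. The hypoplastic libraries enter both this comparison and the preceding one, so opposite signs in the pair are not independent.

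Treated lungs were also set against controls, to see what differed after treatment. Of the 10 members 8 had a higher fitted level in the treated lungs, where 50.6% of all genes did. Their median log2 fold change was 0.279 against 0.00278 over all genes, and edgeR called 0 of 10, where it called 0.0% of genes. At an unadjusted p under 0.05 edgeR had 0 members, where 4.17% of genes passed. DESeq2 called 0 members, against 0.108% of genes. It had 0 members at an unadjusted p under 0.05, where 621 of all 12926 genes passed. No member had groups that did not overlap, against 9.38% of genes. Des was at 0.70 (SE 0.497, 95% interval -0.42 to 1.81, edgeR adjusted p 0.998), Acta2 at 0.45 and Tagln at 0.43. Without treated library 2 those of Acta2 and Tagln were 0.0382 and 0.0645, and without control library 2 they were 0.136 and 0.0807. Cnn1 and Myh11 were at -0.02 and -0.04, with intervals of -1.14 to 1.10 and -0.94 to 0.87. Without control library 2 the value of Des was 0.295 and the median over the members 0.0494. That median was 0.0513 without treated library 2, 0.109 without treated library 3 and 0.44 without treated library 1.

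**Figure D5:**
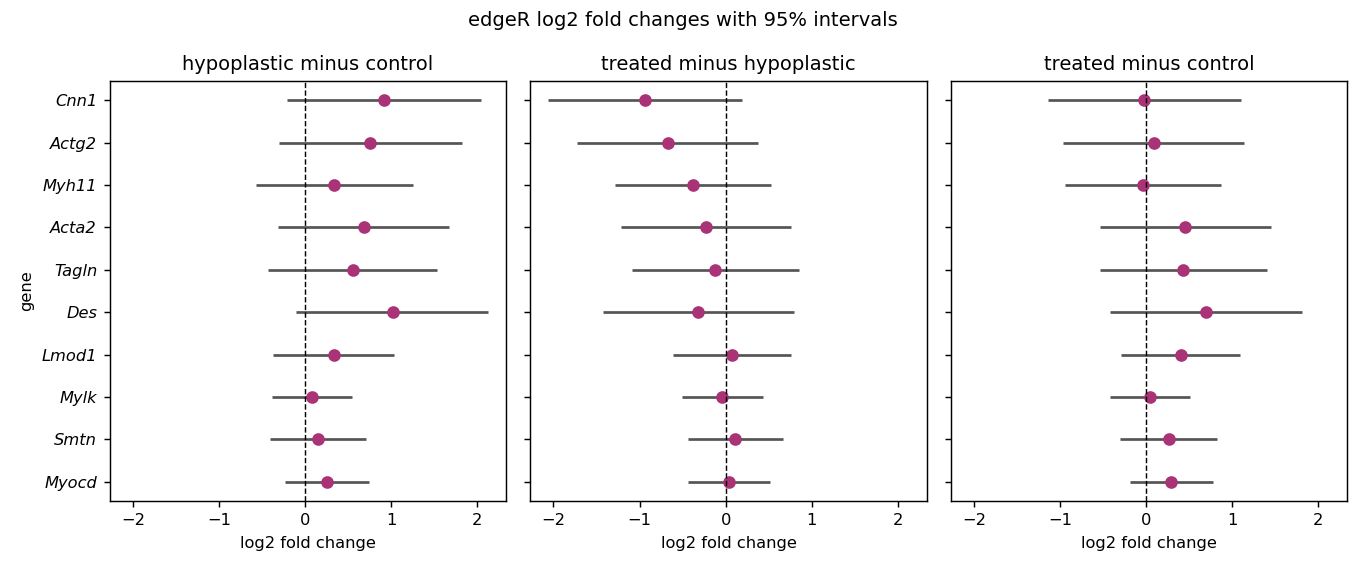
Log2 fold changes (points) with 95% intervals (lines) of the 10 smooth muscle genes in the 3 comparisons, from the edgeR fit of all genes. All 30 intervals include 0; they are widest for Cnn1, Des and Actg2 and narrowest for Mylk and Myocd.

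Of 12 other genes listed here as regulators of the programme and found in the table, edgeR called 0 in each comparison. In hypoplastic against control lungs 7 were higher and 5 lower (median 0.102 on the log2 scale), where 51.9% of all genes were higher. Of the 12, 2 had an unadjusted edgeR p under 0.05, where 12.4% of all genes did. DESeq2 called 1, where it called 1.56% of all genes. In treated against hypoplastic lungs 5 were higher and 7 lower (median -0.115), where 48.1% of all genes were higher. Of the 12, 4 had an unadjusted edgeR p under 0.05, where 5.56% of all genes did. In treated against control lungs 6 were higher and 6 lower, where 50.6% of all genes were higher. There 0 had an unadjusted edgeR p under 0.05, where 4.17% of all genes did. DESeq2 called 0 in both of these comparisons. Csrp2, a LIM-domain protein of smooth muscle that serves as a partner of Srf, was at 26.2, 19.2 and 19.4 CPM in control, 33.8, 40.8 and 34.1 CPM in hypoplastic and 26.5, 31.4 and 21.4 CPM in treated libraries. Its hypoplastic libraries lay above all others. Over all genes the libraries did not overlap for 16.7% in hypoplastic against control and 9.79% in treated against hypoplastic lungs, in either direction. The log2 fold change of Csrp2 was 0.75 (SE 0.177, edgeR adjusted p 0.317) in hypoplastic against control and -0.46 (SE 0.176, edgeR adjusted p 0.895) in treated against hypoplastic lungs. DESeq2 called Csrp2 in the first (adjusted p 0.0201) and not in the second (0.691), and the adjusted p in the first ran up to 0.762 over the alternatives.

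Hey2, a repressor downstream of Notch, was at 0.567, 0.285 and 0.692 CPM in control, 1.22, 1.04 and 0.923 CPM in hypoplastic and 0.382, 0.275 and 0.587 CPM in treated libraries. Its hypoplastic libraries were the highest here too, at a low level, with edgeR adjusted p of 0.359 and 0.826 in the first and second comparisons. Srf itself was at 63.2, 88.3 and 71.1 CPM in control, 65.5, 74.7 and 68.5 CPM in hypoplastic and 86.2, 91.6 and 78.5 CPM in treated libraries. The last pair did not overlap (log2 fold change 0.30, SE 0.131, edgeR adjusted p 0.895), as for 9.79% of all genes. The highest levels of Srf were in treated library 2 and control library 2, in which the members were high and low. Ldb3, counted in the list of regulators but best known from striated muscle, was at 8.45 CPM in hypoplastic library 1 and 1.21 to 4.49 CPM elsewhere. It is among the listed genes with an unadjusted edgeR p under 0.05 in treated against hypoplastic lungs (0.00592).

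Of 28 other contractile and cytoskeletal genes of smooth muscle, 27 were tested, and edgeR and DESeq2 called 0 in each comparison. At an unadjusted edgeR p under 0.05 there were 3, 3 and 1 in the order above, where 12.4, 5.56 and 4.17% of all genes passed. In hypoplastic against control lungs 19 were higher and 8 lower (median log2 fold change 0.075), where 51.9% of all genes were higher. In treated against hypoplastic lungs 7 were higher and 20 lower (median -0.0727), where 48.1% of all genes were higher. Myl9, the smooth muscle myosin light chain, was at 15.1, 10.4 and 15.7 CPM in control, 28.3, 18.6 and 16.9 CPM in hypoplastic and 10.9, 20.4 and 16.0 CPM in treated libraries. Its hypoplastic libraries lay above all control libraries (log2 fold change 0.63, SE 0.273, edgeR adjusted p 0.396), as for 7.65% of all genes. The log2 fold change of Myl9 was 0.37 without hypoplastic library 1. Tpm2, a tropomyosin, was at 8.09, 5.53 and 7.67 CPM in control and 16.6, 11.9 and 7.33 CPM in hypoplastic libraries, with overlap. Pln (phospholamban, a calcium pump regulator of heart and smooth muscle) was at 2.75 and 2.84 CPM in hypoplastic libraries 1 and 2 and at 0.0587 to 0.368 CPM in the other libraries. Those are the libraries with the highest heart muscle sums. Tns1 (tensin), by contrast, was lower in all hypoplastic libraries (245, 295 and 282 CPM) than in all control libraries (297, 388 and 366 CPM). The difference was -0.36 on the log2 scale (SE 0.122, edgeR adjusted p 0.333). Over all genes 16.7% did not overlap there, in either direction. Ppp1r14a, an inhibitor of the phosphatase that ends contraction, was at 17.1, 13.1 and 19.5 CPM in control, 15, 19.6 and 17.8 CPM in hypoplastic and 23.2, 19.9 and 23.4 CPM in treated libraries. Its treated libraries lay above all others, at the closest 19.9 against 19.6 CPM. Over all genes 9.38% did not overlap in treated against control and 9.79% in treated against hypoplastic lungs, in either direction. The treated against control log2 fold change of Ppp1r14a was 0.42 (SE 0.169, edgeR adjusted p 0.998), and 0.274 without control library 2.

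Of 10 non-muscle counterparts tested, which serve the cytoskeleton of most cells or of striated muscle, edgeR and DESeq2 called 0 in each comparison, and the median log2 fold change was 0.0515 in hypoplastic against control lungs. At an unadjusted p under 0.05 edgeR had 2 there (Vim higher and Myh14 lower), 0 in the second comparison and 1 (Myl12b) in the third. Over all genes 12.4, 5.56 and 4.17% passed. Vim (vimentin), the mesenchymal intermediate filament, was at 690, 420 and 750 CPM in control, 795, 1250 and 768 CPM in hypoplastic and 536, 801 and 706 CPM in treated libraries. It shared with the members its low values in control library 2 and treated library 1. Myh14, a non-muscle myosin, was highest in control library 2 (279 CPM) and lowest in hypoplastic library 1 (88.8 CPM), where the members were lowest and highest.

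Lists of cells that also hold smooth muscle genes were read beside the members. The 10 vascular mural genes (pericytes and vascular smooth muscle) summed to 730, 372 and 830 CPM in control, 698, 1080 and 690 CPM in hypoplastic and 483, 604 and 797 CPM in treated libraries. Of these, 9 of 10 were higher in hypoplastic than in control lungs (median log2 fold change 0.16), where 51.9% of all genes were. In treated against hypoplastic lungs 10 of 10 were lower (median -0.153), where 48.1% of all genes were higher. edgeR and DESeq2 called 0 of them. At an unadjusted p under 0.05 edgeR had 0, where 12.4, 5.56 and 4.17% of all genes passed in the order above. The 5 genes of airway smooth muscle and myofibroblasts summed to 243 to 648 CPM in control, 449 to 753 CPM in hypoplastic and 338 to 685 CPM in treated libraries. In the first comparison 4 of 5 were higher (median log2 fold change 0.496), and in the second 5 of 5 were lower (median -0.431). edgeR and DESeq2 called 0 of them, and 1, Nog, had an unadjusted edgeR p under 0.05, in the first comparison. Nog was at 7.85 CPM in hypoplastic library 2 and 2.28 to 3.5 CPM elsewhere. The sums of both lists were lowest in control library 2, as for the members. They were highest in hypoplastic library 2, where Postn (416 CPM, against 160 CPM in hypoplastic library 1) and Pdgfra (333 against 111 CPM) were highest. Rgs5 (7.73 CPM), Cspg4 (94.2 CPM, against 92.7 CPM in control library 1) and Hhip (60.6 CPM) were highest in hypoplastic library 1, like 6 of the members. Notch3, Abcc9, Kcnj8 and Nog were highest in hypoplastic library 2, and the other genes of both lists in control or treated libraries. Enpp2 was lowest in hypoplastic library 1 (131 CPM).

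The genes of heart muscle, which also uses Des and, in the fetus, Acta2 and Tagln, were at unequal levels between libraries. Myh6, the atrial myosin, was at 70.9 and 28.2 CPM in hypoplastic libraries 1 and 2 and at 0.0136 to 3.12 CPM in the others, and Myl7 at 37.6 and 22.7 CPM against 0 to 2.48 CPM. In hypoplastic library 3 Myh6 was at 0.0181 CPM and Des at 144 CPM, against 136 CPM of Des in control library 3. Of the 15 heart genes 13 were tested, 11 of them higher in hypoplastic than in control lungs, where 51.9% of all genes were. Of the 13, 9 had an unadjusted edgeR p under 0.05, where 12.4% of all genes did. DESeq2 called 1 and edgeR 0. In treated against hypoplastic lungs 12 of the 13 were lower and 1 higher, where 48.1% of all genes were higher. There 11 had an unadjusted edgeR p under 0.05, where 5.56% of all genes did. In that comparison too, DESeq2 called 1 of the heart genes, where it called 0.132% of all genes, and edgeR called 0. None of the 15 was at 0 in a whole group. Ryr2 was highest in control library 2 (40.1 CPM). Myl3 was lowest in hypoplastic library 1 (0.0762 CPM), and Nppa was at 0 CPM there and 4.56 CPM in hypoplastic library 2. The skeletal muscle genes were low (summed 9.45 to 17.5 CPM, with 2 of 11 at 0 throughout each group, not the same 2 in each). All 8 cartilage genes were highest in hypoplastic library 1, as many members were. Col2a1, the most abundant, was at 894 CPM there and lowest in control library 2 (118 CPM), but Col9a1, Hapln1 and Cnmd were lowest in other libraries. The 6 squamous epithelial genes summed to 18.9 to 56.6 CPM, highest in control library 2 (56.6 CPM) and next in hypoplastic library 1 (48.1 CPM). Within that list Krt5 and Krt14 were each at 14.9 CPM in hypoplastic library 1 and under 1 CPM in the others, while Krt4, the most abundant, was lowest there (17.9 CPM) and highest in control library 2 (54.2 CPM). The 3 mesothelial genes summed to 83.1 CPM in hypoplastic library 2 and 13.7 to 40.9 CPM elsewhere. Whether heart, cartilage or large-airway tissue was in the samples, and its part in the smooth muscle levels, was not tested.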

How the data were processed

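Transcript levels of 9 lungs in 3 groups were read from 1 table. The authors deposited estimated counts for 17465 genes without normalization between libraries, judged from their unequal totals; 19.5% of the nonzero values were exactly whole. The submitters' processing notes name the build rn7 and DESeq2, without their role. The sources used here do not give the aligner, counter, annotation or use of strand, so overlapping genes and near-identical copies are uncertain. Symbols came from a RefSeq table of GRCr8, which matched 17314 IDs (99.1%).

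Estimated counts were rounded and tested with edgeR 4.0.16 (R 4.3.3, glmQLFit with legacy=FALSE, glmQLFTest) after filterByExpr, which kept 12966 genes, and TMM normalization. The 9 libraries were fitted together by group, leaving 6 residual degrees of freedom. Benjamini-Hochberg adjustment ran over all genes tested, with calls under 0.05. Standard errors are the log2 fold change over the square root of F, and 95% intervals use the moderated degrees of freedom. Log2 CPM used a prior count of 2. DESeq2 1.42.0 was an alternative. The fits were tested on simulated data.

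The members, the 3 companion lists (other regulators, other contractile genes, non-muscle counterparts), the marker lists and the tests were chosen with earlier results of these data known. The text names all members, up to 4 genes per companion list and comparison by smallest p, up to 4 per marker list by highest mean CPM, and the 5 most alike genes. Nog, Rgs5, Abcc9, Kcnj8, Nppa, Myl3, Hapln1, Cnmd and the ratio of Tagln to Acta2 were picked after their values were seen. Members were left out of the companion lists, and 11 listed symbols found no row and were not used here. Between libraries of 1 group chi-square over its degrees of freedom was 132.1 or more, far beyond counting noise. Same-numbered libraries are not said to be paired.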

Additional observations from a re-analysis of the deposited data

How the results depend on the processing

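Of 420 values of the 10 members under the alternatives, 388 kept their direction and their side of the threshold, 32 turned direction and 0 passed it, the smallest adjusted p being 0.363 (Cnn1, DESeq2, hypoplastic against control). DESeq2 called 0 members in each comparison, and so did edgeR under RLE factors, no filter or a 1 CPM filter, the sex covariate, the removal of ribosomal and 7SL rows, the fit of 2 groups alone, the replicate block and the omission of each library. With 3 lungs a group and within-group SDs up to 0.823, differences of the size seen in Des could not be told from the spread.

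The labels do not say that the replicate numbers pair the libraries. The correlation of deviations was -0.282 to 0.227 for same-numbered libraries and -0.439 to 0.389 for differently numbered ones. With 3 libraries a group these values cannot tell whether the libraries are paired. With the replicate block the median log2 fold change of the members was 0.457, -0.166 and 0.278 in the 3 comparisons, and only the values of Cnn1 (0.106) and Myh11 (0.0472) in treated against control lungs turned sign. With the sex covariate that of Actg2 there was -0.000404.

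The other reversals came from leaving out 1 library. In hypoplastic against control lungs the log2 changes ran from -0.0178 to 0.567 for Lmod1, -0.243 to 0.567 for Myh11, -0.132 to 0.304 for Mylk and -0.0968 to 0.306 for Smtn. In treated against hypoplastic lungs they ran from -0.642 to 0.108 for Acta2, -0.947 to 0.0371 for Actg2, -0.535 to 0.0291 for Des, -0.166 to 0.42 for Lmod1, -0.634 to 0.206 for Myh11, -0.137 to 0.079 for Mylk, -0.13 to 0.197 for Myocd, -0.0548 to 0.279 for Smtn and -0.486 to 0.188 for Tagln. In treated against control lungs the range was -0.188 to 0.374 for Actg2, -0.423 to 0.265 for Cnn1, -0.297 to 0.234 for Myh11 and -0.172 to 0.264 for Mylk. The median over the members ran from 0.186 to 0.733, -0.511 to 0.0854 and 0.0494 to 0.44 in the 3 comparisons.

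Among the companion genes, Pln passed in hypoplastic against control (adjusted p 0.0309) and in treated against hypoplastic lungs (0.0149), and Ldb3 in the latter (0.0481), by edgeR without hypoplastic library 3, the hypoplastic library with the lowest heart muscle sum. In that fit edgeR called 45 and 44 of all 13168 genes tested in these comparisons. With all 9 libraries it called 1 and 0 of 12966. The cause was not tested.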
